A study of Mus musculus with 8 samples.

Results

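Bone morphogenetic proteins (BMPs) and growth and differentiation factors (GDFs) are secreted ligands, and the genes described here are 6 of them (Bmp2, Bmp4, Bmp5, Bmp6, Bmp7 and Gdf11) with 4 secreted proteins that bind BMPs outside the cell (Grem1, Chrdl1, Nog and Bmper). The 10 genes were taken by symbol from a table of 21291 gene rows, and all 10 were present and passed the filter on low values, so all 10 were among the 14974 genes tested. PolyA-selected RNA came from mouse embryonic kidneys at E14.5, with both kidneys of 1 embryo in each library. The 4 mutant embryos were Six2-GFPcre tg/+; Etv4-/-; Etv5fl/fl, and the 4 control embryos were Six2-GFPcre tg/+; Etv4+/-; Etv5fl/fl. The labels call the controls littermates without saying which embryos shared a litter. Every embryo in both groups thus carried the Six2-GFPcre transgene, which drives Cre recombinase in nephron progenitors, and 2 floxed alleles of Etv5. As labelled, the groups differ at Etv4 alone, and the Etv4 null allele is not limited to the Six2 lineage. Etv4 and Etv5 encode ETS transcription factors that act downstream of receptor tyrosine kinases in the kidney.

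BMP ligands bind pairs of type I and type II receptor kinases, which phosphorylate SMAD1, SMAD5 and SMAD9; these join SMAD4 and enter the nucleus to induce targets such as the Id genes. Noggin, gremlin and the chordin family capture ligands before they reach a receptor. In the developing kidney, BMP7 made by the cap mesenchyme and ureteric bud is needed to keep nephron progenitors, BMP4 from mesenchyme around the ureteric duct holds back extra budding, and gremlin 1 lifts that restraint so that the bud can grow and branch. GDF11 is needed for the ureteric bud to form and signals mainly through the activin branch of the pathway.

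Levels are given as scaled counts, that is, estimated read counts divided by a size factor per library. Total estimated counts ran from 35308934 to 38824018 in mutants and from 15515139 to 39548327 in controls. The lowest total was that of control 4, where Lars2 took 18.4% of the counts, against at most 0.476% in any other library. The deleted gene, Etv4, had 294, 281, 219 and 164 scaled counts in mutants 1 to 4, against 2816, 2803, 2816 and 2311 in controls 1 to 4, or −3.51 on the log2 scale (SE 0.18, limma adjusted p = 2.62e-05). Etv5 averaged 2120 ± 511 in mutants and 3614 ± 491 in controls (SD, n = 4 each). The nephron progenitor factor Six2 averaged 1971 ± 1281 scaled counts in mutants and 9859 ± 3291 in controls. On the log2 scale Etv5 differed by −0.79 (SE 0.18, limma adjusted p = 0.106) and Six2 by −2.55 (SE 0.49, limma adjusted p = 0.0775). Neither passed 0.05 here, while the authors' deposited comparison lists Etv5 at an adjusted p of 4.8e-05 and Six2 at 0.0036. Wt1, a kidney lineage factor, stood between 4012 and 5439 in mutants and between 2981 and 4987 in controls. This 1 gene was thus present in all 8 libraries, which does not by itself verify the labelled tissue. The summed level of 4 Y-linked genes was 0 to 19.6 in mutants and 3586 to 3716 in controls, so genotype and sex of the embryo cannot be told apart for any gene below. Tests are limma on log2(scaled count + 1), two-sided, with Benjamini-Hochberg adjustment over all genes tested and a threshold of 0.05. They set the genotype difference against the spread between embryos. In bulk kidney RNA, fewer cells of a type and less RNA per cell cannot be told apart.

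For a view of the DNA next to the genes whose levels differed most clearly and that have a sequence in the RefSeq promoter table (GRCm38.p6), the 250 bases before the transcription start are shown for Bmp4, Gdf11 and Bmper, 5′ to 3′ on the gene's own strand. Capitals mark GGAA, the core letters bound by ETS factors, on either strand (TTCC when it lies on the other strand).
Bmp4, chr14:46390670-46390919, minus strand: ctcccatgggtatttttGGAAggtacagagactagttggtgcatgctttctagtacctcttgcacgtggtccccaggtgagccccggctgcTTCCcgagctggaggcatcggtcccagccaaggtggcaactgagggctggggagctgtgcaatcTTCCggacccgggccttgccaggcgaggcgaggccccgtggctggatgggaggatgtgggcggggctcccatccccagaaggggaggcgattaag
Gdf11, chr10:128891719-128891968, minus strand: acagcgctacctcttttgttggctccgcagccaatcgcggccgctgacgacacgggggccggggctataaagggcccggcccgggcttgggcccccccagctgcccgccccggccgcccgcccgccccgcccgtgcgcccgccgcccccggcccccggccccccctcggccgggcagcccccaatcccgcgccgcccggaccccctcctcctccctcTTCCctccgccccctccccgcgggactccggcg
Bmper, chr9:23222826-23223075, plus strand: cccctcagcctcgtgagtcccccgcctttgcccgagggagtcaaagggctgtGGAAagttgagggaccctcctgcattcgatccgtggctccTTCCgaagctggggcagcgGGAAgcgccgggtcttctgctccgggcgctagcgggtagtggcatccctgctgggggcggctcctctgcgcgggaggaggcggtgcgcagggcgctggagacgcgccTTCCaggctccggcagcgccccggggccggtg

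Of the 10 genes, 6 matched a sequence in that table. The Bmp4 window held 3 GGAA matches, the Gdf11 window 1 and the Bmper window 4, while 93.4% of 32851 promoter windows of the same length held at least 1. The longer motif CGGAAG, searched on both strands, overlaps the GGAA core. It occurred once in the Bmp4 window and once in the Bmper window, in none of the Bmp5, Bmp6, Gdf11 and Grem1 windows, and in 13.6% of all windows. A match describes letters in the sequence and is not evidence of binding.

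Bmp7 fell in the mutant kidneys, and it was the single gene of the 10 to pass the threshold. Bmp4 stood higher in every mutant library than in any control library, Gdf11 stood lower, and the other 7 genes overlapped between genotypes. Thus 1 of 10 genes was lower and 0 of 10 were higher by limma at an adjusted p below 0.05, where 0.301% of all genes tested passed (0.22% lower and 0.0801% higher). At an unadjusted p below 0.05 there were 4 of the 10 (Bmp7, Bmp4, Gdf11 and Bmper), against 12% of all genes. Groups did not overlap for 3 of the 10, against 8.6% of all genes tested; 2 were lower in mutants, against 4.43%, and 1 was higher, against 4.17%. With limma voom the same count of 1 lower and 0 higher was found. The median log2 fold change of the 10 genes was −0.0078, against 0.0087 over all genes tested, since 4 genes had positive values and 6 negative ones.

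**Figure D1:**
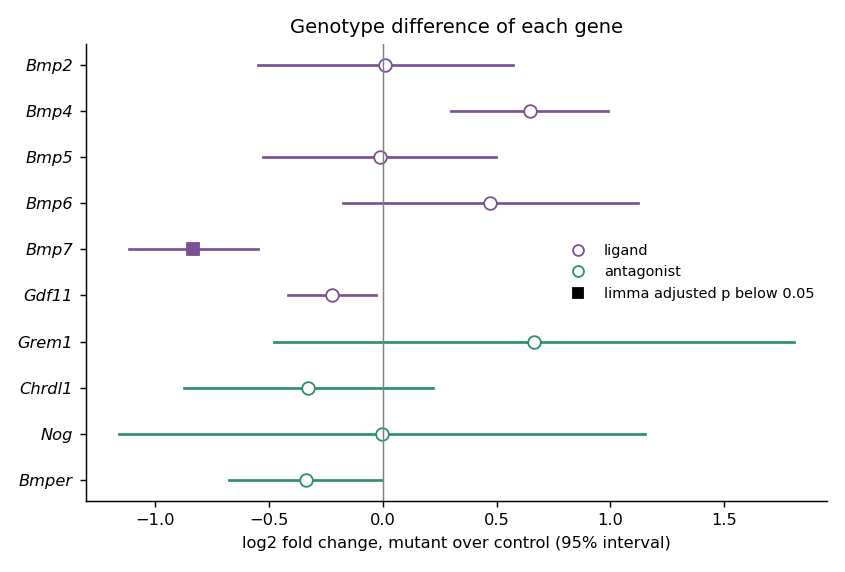
Log2 fold change of mutant over control for each gene (points) with its 95% interval from limma (lines), ligands in purple and antagonists in green; the filled square marks an adjusted p below 0.05. Bmp7 lies at −0.83 and is the single filled square, while the intervals of Bmp4, Gdf11 and Bmper also leave out 0.

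Bmp7 (ENSMUSG00000008999, chromosome 2, 172868012 to 172940321, minus strand, GRCm38) had 2442, 2270.3, 1824 and 1862 scaled counts in mutants 1 to 4, against 3867, 3686, 4263 and 3114 in controls 1 to 4. The highest mutant lay well under the lowest control. The means were 2099.6 ± 305 in mutants and 3732 ± 478 in controls (SD, n = 4 each), so mutants held 56.3% of the control level. The log2 fold change was −0.83 (SE 0.13, 95% interval −1.11 to −0.55, limma adjusted p = 0.033). The call rested on the set of libraries: it held without control 4 (adjusted p = 0.0105) and was lost on leaving out any of the other 7 (0.0549 to 0.131), while the fold change stayed between −0.92 and −0.76. In the authors' deposited table Bmp7 has a log2 fold change of −0.91 (SE 0.12) with an adjusted p of 6.9e-11.

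Some markers of the cells that make BMP7 in the fetal kidney differed in the same direction, and others did not. All 6 nephron progenitor markers (Six2, Cited1, Osr1, Eya1, Meox1 and Crym) had negative fold changes, and 2 of them, Osr1 and Crym, fell by limma. By limma voom 3 passed (Osr1, Meox1 and Crym), and all 6 had an unadjusted limma p below 0.05, against 12% of all genes. These 6 markers had a summed level of 2591 to 8115 scaled counts in mutants, against 14529.7 to 28672 in controls, and none was at 0 in any library. The 5 ureteric tip markers other than the deleted Etv4 (Ret, Wnt11, Gfra1, Etv5 and Sox8) also had negative fold changes, and 1 of them, Gfra1, fell by limma. By limma voom 2 passed (Wnt11 and Gfra1), and all 5 had an unadjusted limma p below 0.05. The summed level of these 5 was 5580.1 to 10411 scaled counts in mutants and 12689 to 18414 in controls. Markers of the ureteric epithelium as a whole overlapped, with sums of 17335.5 to 19719.7 in mutants and 15174.5 to 22110.2 in controls. Of those 6 markers 4 had positive fold changes, with a median of 0.17, and 0 passed by limma or limma voom (2 at an unadjusted p below 0.05). The podocyte sum, another site of Bmp7 expression, was on the other side at 9551 to 17113 in mutants and 7820.2 to 9202 in controls. The part of these cell types in the Bmp7 result was not tested.

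Bmp7 was higher in mutants 1 and 2 than in mutants 3 and 4. The progenitor marker sum split the mutants in the same way, at 8115, 7233, 3288 and 2591 in mutants 1 to 4. So did the sum of the ureteric tip markers other than Etv4 (10411, 9888, 7482 and 5580.1). The cortical and nephrogenic stroma sum did as well (28685, 28390, 25591 and 24370). The proximal tubule sum split them in the opposite order (671, 903, 4743 and 12429). Among controls the progenitor sum was highest in control 1 (28672), whereas Bmp7 was highest in control 3. The part of these cell types was not tested. Mutants 1 and 2 and controls 1 and 2 carry the same number in the library name, and within those 4 libraries the fold change was −0.68 (SE 0.08, limma adjusted p = 0.0619). Mutant 4 and control 4 share another such number, with 1862 and 3114 scaled counts. The genes whose log2 levels followed Bmp7 most closely over the 8 libraries, by root mean square distance after centring each gene, included Pdgfc, a platelet-derived growth factor (0.125 log2 units), and Sel1l3 (0.139).

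Bmp4 (ENSMUSG00000021835, chromosome 14, 46383520 to 46390669, minus strand) had 958, 994, 1129 and 989.8 scaled counts in mutants 1 to 4, against 521, 560.2, 717 and 849.6 in controls 1 to 4. The 4 mutants were close together and above every control, and control 4 was the nearest of the controls. The means were 1018 ± 75.8 in mutants and 662 ± 151 in controls (SD, n = 4 each). The log2 fold change of 0.64 (SE 0.15, 95% interval 0.30 to 0.99) did not pass over all genes (limma adjusted p = 0.121). Without control 4 it was 0.77 and passed (adjusted p = 0.0257), with 1.18% of all genes passing in that fit, and when any other library was left out it ranged from 0.54 to 0.69 with no call. It also passed without both mutant 4 and control 4 (0.79, adjusted p = 0.0294, with 1.27% of all genes passing) and with library weights (0.65, adjusted p = 0.0155, with 5% passing). The authors' deposited table lists Bmp4 at 0.77 (SE 0.14, adjusted p = 7.9e-06).

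The ureteric mesenchyme and smooth muscle markers, which include cells known to make BMP4, overlapped between genotypes, with summed levels of 7973 to 9062 scaled counts in mutants and 6419 to 8552 in controls. Of these 7 markers 6 had positive fold changes and 0 passed by limma (1 at an unadjusted p below 0.05, 0 by limma voom), with Tbx18, a factor of the ureteric mesenchyme, at 0.50. The cortical and nephrogenic stroma sum was 24370 to 28685 in mutants and 26528.5 to 43109 in controls. Other sums were higher in mutants without overlap: those of early nephron, podocyte, endothelial and macrophage markers. The early nephron sum was 39759 to 44527 in mutants and 26835 to 35472 in controls. The part of any of these cell types in the Bmp4 result was not tested. Within mutants 1 and 2 and controls 1 and 2, Bmp4 differed by 0.85 (SE 0.12, limma adjusted p = 0.0859), and in the pair that shares the other number mutant 4 had 989.8 scaled counts and control 4 had 849.6.

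**Figure D2:**
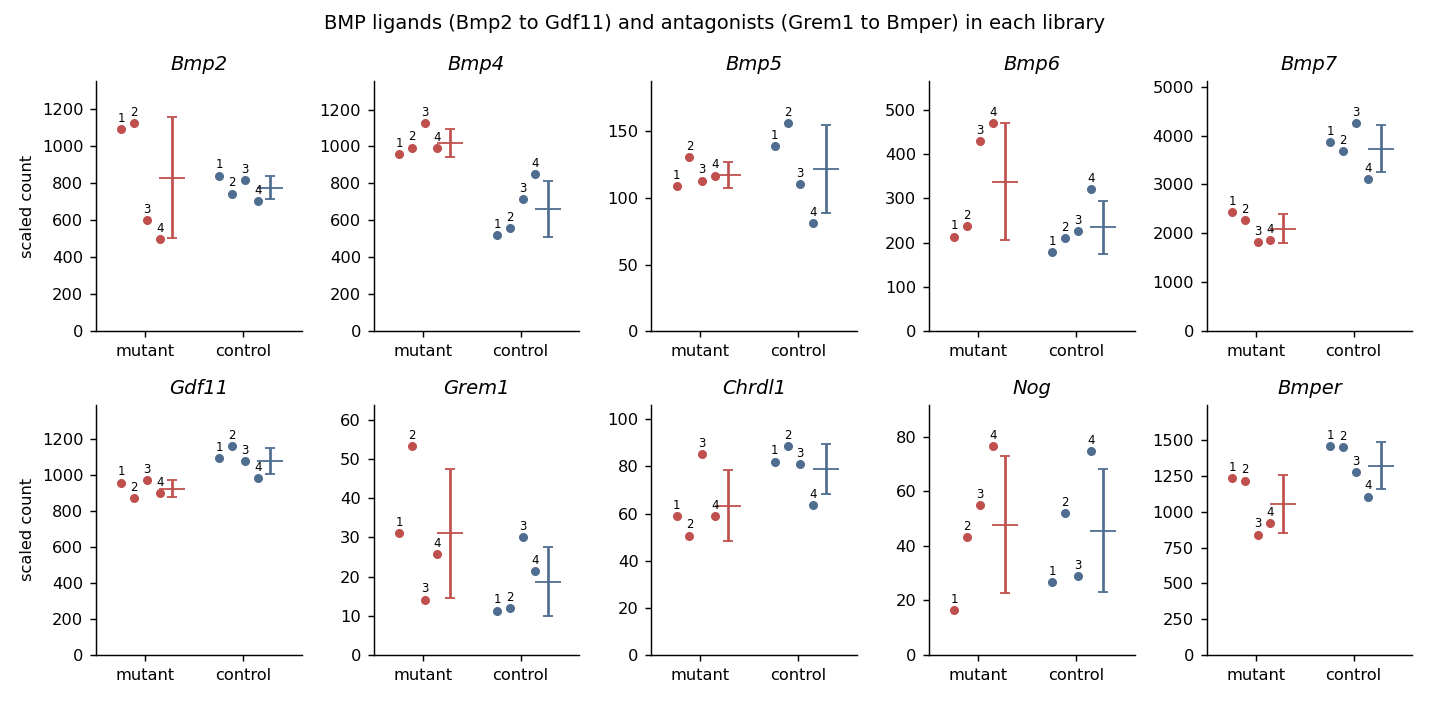
Scaled counts (linear axes from 0, one scale per gene) of the 10 genes in each library, numbered 1 to 4 within genotype, with mean and SD beside the points; mutants are red and controls blue. The groups are apart for Bmp7 (1824 to 2442 in mutants, 3114 to 4263 in controls), Bmp4 and Gdf11, and overlap for the other 7 genes.

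Set against each other in the same library, Bmp4 and Bmp7 give a measure that does not depend on the scaling between libraries; it was chosen after their values were seen. Per kilobase of exon, Bmp4 stood at 70.1%, 78.3%, 110.6% and 95.05% of the Bmp7 level in mutants 1 to 4, against 24.1%, 27.2%, 30.1% and 48.8% in controls 1 to 4. The lowest mutant value was above the highest control value. The means were 88.5% ± 18.02 in mutants and 32.5% ± 11.1 in controls (SD, n = 4 each), and control 4 had the highest share among the controls. No test is given for this ratio.

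Gdf11 (ENSMUSG00000025352, chromosome 10, 128882295 to 128891718, minus strand) had 957, 869, 970.1 and 897 scaled counts in mutants 1 to 4, against 1094, 1157, 1077 and 982 in controls 1 to 4. The gap between the groups was narrow, 970.1 in the highest mutant and 982 in the lowest control. Gdf11 differed by −0.22 on the log2 scale (SE 0.09, 95% interval −0.42 to −0.03) and did not pass (limma adjusted p = 0.341). Gdf11 varied least of the ligands in relation to its level, with means of 923 ± 48.1 in mutants and 1078 ± 72.2 in controls.

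Bmp2 (ENSMUSG00000027358, chromosome 2, 133552159 to 133562885, plus strand) encodes the closest relative of BMP4. It had 1089.8, 1124, 601 and 498 scaled counts in mutants 1 to 4, against 839, 742, 813 and 703 in controls 1 to 4. Mutants 1 and 2 lay above every control and mutants 3 and 4 below every control, so the log2 fold change of 0.01 (95% interval −0.55 to 0.57, limma adjusted p = 0.99) averages libraries on both sides. The SD was 325 among mutants and 62.8 among controls. Within mutants 1 and 2 and controls 1 and 2 the fold change was 0.49 (SE 0.11, limma adjusted p = 0.276), and mutant 4 had 498 scaled counts and control 4 had 703. The sum of the ureteric tip markers other than Etv4 split the mutants in the same way, with 10411, 9888, 7482 and 5580.1 scaled counts for mutants 1 to 4. In controls 1 to 4 that sum was higher, at 15601, 18414, 16559 and 12689, so it did not follow Bmp2 across genotypes. The nephron progenitor sum also split the mutants this way, at 8115, 7233, 3288 and 2591. The proximal tubule sum split them in the opposite order, at 671, 903, 4743 and 12429. The part of these cell types in the Bmp2 values was not tested.

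Bmp6 and Bmp5 belong to the same subfamily as Bmp7. Bmp6 (ENSMUSG00000039004, chromosome 13, 38345107 to 38500302, plus strand) had 214, 237, 430.2 and 471 scaled counts in mutants 1 to 4, against 179.6, 211, 226 and 321 in controls 1 to 4. Its log2 fold change was 0.47 (SE 0.29, 95% interval −0.17 to 1.12, limma adjusted p = 0.553). The 3 highest libraries, mutants 3 and 4 and control 4, were also those with the highest sum of proximal tubule markers, at 4743, 12429 and 4365 scaled counts against 235 to 903 in the other 5. The part of tubule cells in the Bmp6 level was not tested.

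Bmp5 (ENSMUSG00000032179, chromosome 9, 75775364 to 75900310, plus strand) was the lowest of the ligands, at 109, 131, 113 and 117 scaled counts in mutants 1 to 4 against 139, 156, 110.1 and 81.4 in controls 1 to 4. All mutants lay inside the control range. The log2 fold change of −0.014 had a 95% interval of −0.53 to 0.50 (limma adjusted p = 0.987), so changes within that interval are not excluded.

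Taking the 6 ligands together per kilobase of exon, Bmp7 made up 30.2% to 36.7% of the summed level in mutants and 45.7% to 54.2% in controls. Bmp4 made up 25.7% to 33.4% in mutants and 13.01% to 22.3% in controls. The shares of Gdf11 overlapped, at 13.1% to 15.9% in mutants and 13.5% to 16.3% in controls. The summed level itself was 1414 to 1658 scaled counts per kilobase in mutants and 1695 to 1959 in controls. The ranges of the sum, like those of the Bmp7 and Bmp4 shares, did not overlap; they restate the Bmp7 and Bmp4 values and carry no test.

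**Figure D3:**
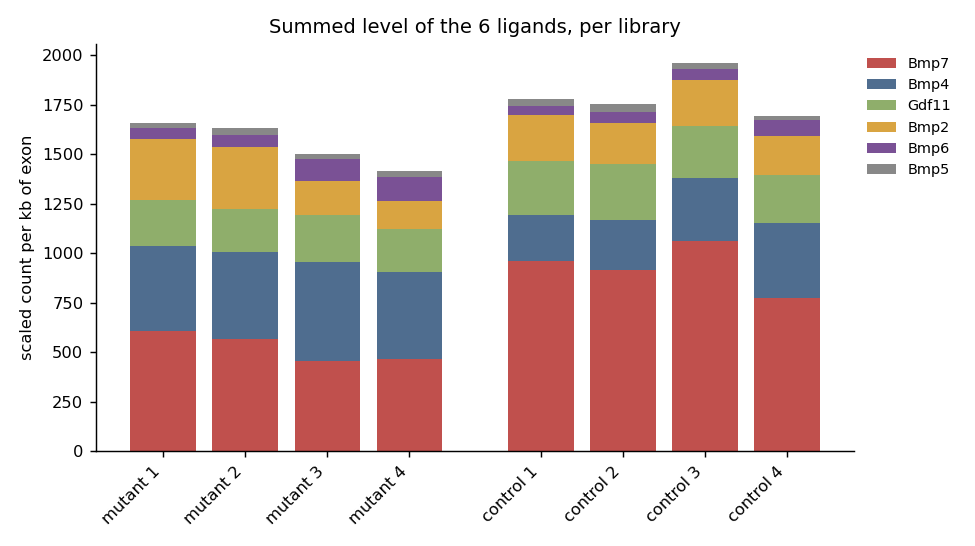
Stacked level of the 6 ligands per library, in scaled counts per kilobase of exon, mutants on the left and controls on the right. The Bmp7 block is shorter in all 4 mutants (454 to 608) than in any control (774.7 to 1061), and the Bmp4 block is taller (426 to 502 against 232 to 378).

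The antagonists did not pass, and all 4 overlapped between genotypes (0 of 4 by limma and by limma voom, against 0.301% of all genes by limma, and 1 of 4 at an unadjusted p below 0.05, against 12% of all genes). Bmper was the abundant one. Bmper (ENSMUSG00000031963, chromosome 9, 23223076 to 23485200, plus strand), a secreted protein with cysteine-rich domains that binds BMPs and can restrain or promote their signalling, had 1237, 1219, 841 and 924 scaled counts in mutants 1 to 4 against 1457, 1454, 1277 and 1107 in controls 1 to 4. Mutants 3 and 4 lay below every control, and mutants 1 and 2 lay inside the control range. Bmper differed by −0.34 on the log2 scale (SE 0.15, 95% interval −0.67 to −0.0028, limma adjusted p = 0.408). Within mutants 1 and 2 and controls 1 and 2 it was −0.25 (SE 0.09, limma adjusted p = 0.453).

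The other 3 antagonists were scarce, and counting error weighs on each value. Grem1, which encodes gremlin 1 (ENSMUSG00000074934, chromosome 2, 113746164 to 113758646, minus strand), had 31.0, 53.2, 14.1 and 25.7 scaled counts in mutants 1 to 4 against 11.3, 12.0, 30.1 and 21.4 in controls 1 to 4. Mutants 1 and 2 lay above every control and mutants 3 and 4 inside the control range. The log2 fold change of 0.66 had a 95% interval of −0.48 to 1.80 (limma adjusted p = 0.646), and within mutants 1 and 2 and controls 1 and 2 it was 1.72 (SE 0.57, adjusted p = 0.416). Control 4 held 7.7 estimated counts of Grem1, which by counting alone carries an error of 36.0%.

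Chrdl1 (ENSMUSG00000031283, chromosome X, 143285674 to 143394262, minus strand), a chordin relative, had 58.7, 50.6, 85.3 and 58.9 scaled counts in mutants 1 to 4 against 82.0, 88.5, 81.1 and 63.7 in controls 1 to 4. Of the mutants 3 lay below every control and mutant 3 lay among them. Chrdl1 differed by −0.33 on the log2 scale (SE 0.24, 95% interval −0.87 to 0.22, limma adjusted p = 0.636). Chrdl1 is X-linked, and the embryos' sex followed genotype.

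Nog, which encodes noggin (ENSMUSG00000048616, chromosome 11, 89300638 to 89302332, minus strand), lies 12.5 Mb from Etv4 on the same chromosome. It had 16.3, 43.3, 54.9 and 76.5 scaled counts in mutants 1 to 4 against 26.7, 52.1, 28.9 and 74.7 in controls 1 to 4. Both genotypes covered nearly the same range. The 95% interval of the log2 fold change, −1.16 to 1.15 (limma adjusted p = 0.999), does not exclude more than a doubling in either direction.

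Compared per kilobase of exon, the 10 genes kept a similar order of level in both genotypes. Bmp7 led, with 522 ± 75.8 scaled counts per kilobase in mutants and 929 ± 119 in controls (SD, n = 4 each). Bmp4 came second, with 453 ± 33.7 in mutants and 294 ± 67.2 in controls. In mutants the ranges of Bmp4 (426 to 502) and Bmp7 (454 to 608) overlapped, whereas in controls they were apart (232 to 378 and 774.7 to 1061).

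Behind them stood Bmper, Gdf11 and Bmp2, with means of 218, 227 and 233 for mutants against 274, 265 and 218 for controls, and these neighbours differed by less than their spread over libraries in mutants. In controls Bmp4, Bmper and Gdf11 overlapped too. Bmp6 followed at 86.7 ± 33.7 in mutants and 60.1 ± 15.6 in controls. Bmp5 and Nog overlapped with each other with means of 29.2 and 28.2 for mutants against 30.3 and 26.9 for controls. Chrdl1 (9.38 in mutants, 11.7 in controls) and Grem1 (7.48 in mutants, 4.51 in controls) were lowest, so among the antagonists Bmper alone reached the level of the main ligands.

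The remaining genes of the pathway were described from 6 lists. By limma, as by limma voom, 0 genes of any list passed after adjustment, where 0.301% of all genes tested passed by limma. At so low a share, 0 calls do not show that the lists were unchanged. The count at an unadjusted p below 0.05 was 2 of 9 type I and II receptors, 2 of 5 co-receptors, 2 of 10 SMADs and nuclear regulators, 1 of 9 other ligands, 2 of 16 other extracellular regulators and 5 of 11 BMP-SMAD targets, against 12% of all genes tested. The counts for the other ligands and the other extracellular regulators are thus near that background. Bambi, Smad6 and Smad7 stand on 2 lists each. By list, 7 of 9 receptors had positive fold changes with a median log2 value of 0.097, against 0.0087 over all genes tested.

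Acvrl1 (ALK1), a type I receptor best known in endothelium, had 872, 831, 1064 and 1116 scaled counts in mutants 1 to 4 against 561, 684, 668 and 612 in controls 1 to 4, a difference of 0.61 on the log2 scale (SE 0.12, limma adjusted p = 0.0858). The groups did not overlap. The sum of 6 endothelial markers was also higher in mutants, at 18439 to 21093 against 13144 to 17275 in controls, and its part was not tested. Bmpr1a, a main BMP type I receptor, differed by 0.097 on the log2 scale (SE 0.07, adjusted p = 0.636), and Bmpr1b by 0.28 (SE 0.12, limma adjusted p = 0.407).

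Of the SMADs, Smad1 and Smad9, which carry the same signal, lay on opposite sides. Smad1 differed by −0.45 on the log2 scale (SE 0.13, limma adjusted p = 0.218) and its groups did not overlap, with 440.5 to 522 scaled counts in mutants and 591 to 844 in controls. Smad9 differed by 0.53 (SE 0.17, limma adjusted p = 0.237), with overlap between the groups, at 306 to 476 scaled counts in mutants and 232 to 308 in controls. Smad5 (3768 to 4688 scaled counts in mutants, 4259 to 5162 in controls) differed by −0.13 with overlap. The list median was 0.029.

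Among other extracellular regulators, whose list median was 0.29, Crim1, a membrane protein that tethers BMPs, had 995 to 1303 scaled counts in mutants and 780.5 to 948 in controls (log2 fold change 0.40, SE 0.11, limma adjusted p = 0.172). Fst, which encodes follistatin, an antagonist of activins and GDF11, had 35.7 to 89.8 scaled counts in mutants and 16.6 to 32.2 in controls (1.12, SE 0.39, limma adjusted p = 0.288). Both had groups that did not overlap and neither passed.

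Genes that BMP-SMAD signalling is known to induce had a median log2 fold change of 0.38, with 10 of 11 positive. By p-value, Hey1, also a Notch target, led at 0.42 (SE 0.10, limma adjusted p = 0.11), followed by Bambi, a decoy receptor, at 0.50 (SE 0.14, limma adjusted p = 0.174). Of the Id genes, Id1 stood at 0.24, Id2 at 0.14 and Id3 at 0.081, while Id4 stood at 0.53 (SE 0.18, limma adjusted p = 0.263), with 3 of 4 mutants above every control; all 4 overlapped between genotypes. Summed markers of several cell types were higher in mutants beside this list, with groups that did not overlap: early nephron structures at 39759 to 44527 scaled counts in mutants against 26835 to 35472 in controls, endothelium at 18439 to 21093 in mutants against 13144 to 17275 in controls, and macrophages at 3112 to 3419 in mutants against 1775 to 2691 in controls. The largest part of the early nephron sum was Ccnd1, with means of 24401 scaled counts in mutants and 19544 in controls, and Fgf8 differed by −0.11. The median log2 fold changes of these 3 marker lists were 0.45, 0.36 and 0.59, with 5 of 6, 6 of 6 and 6 of 6 markers positive. By limma 0 of their markers passed (5 of 6 in each list at an unadjusted p below 0.05), and by limma voom 1 early nephron marker, Pax8, passed. Their part in the target genes' values was not tested. The authors' deposited table of 644 genes lists Acvrl1 at 0.61 (adjusted p = 0.00209), Id4 at 0.63 (adjusted p = 0.00999) and Bambi at 0.52 (adjusted p = 0.01997), and of the 10 ligands and antagonists it lists Bmp7 and Bmp4.

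**Figure D4:**
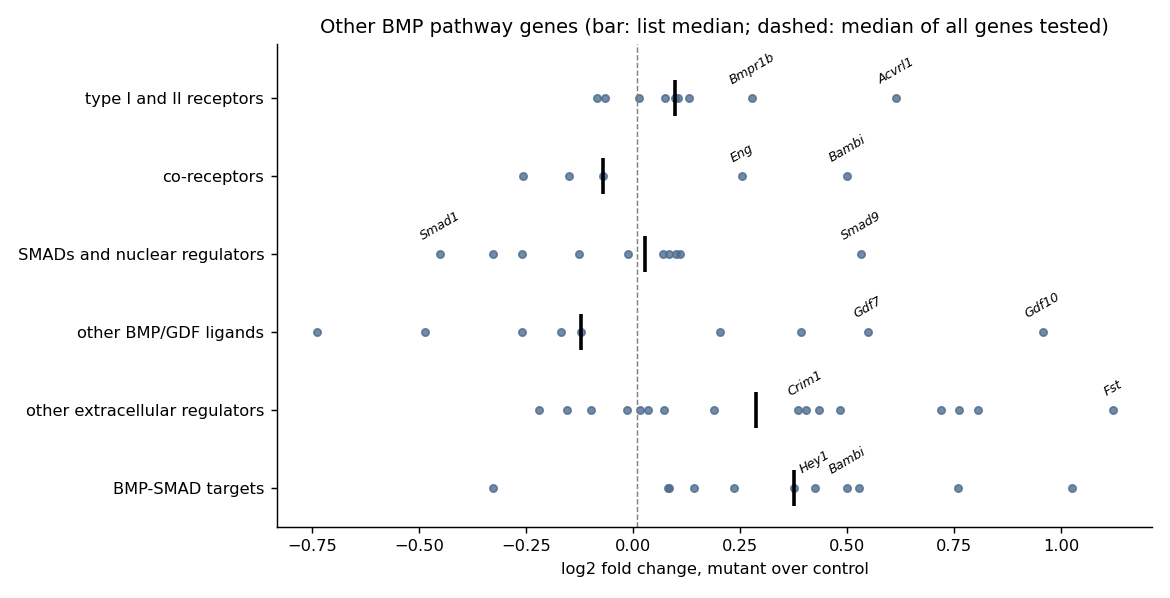
Log2 fold changes (mutant over control) of the other BMP pathway genes, 1 point per gene tested, with a bar at each list's median and a dashed line at the median of all genes tested (0.0087). The medians of the BMP-SMAD targets (0.38) and other extracellular regulators (0.29) lie to the right of that line, the medians of the other 4 lists lie between −0.12 and 0.097, and no point passed the threshold.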

How the data were processed

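Titles place 4 libraries in the mutant group and 4 in the control group. The submitters' processing notes name kallisto 0.46.0, fastp 0.23.2 and DESeq2 1.40.2 and the build mm10, without roles or settings. The deposited expression table holds log2 values of an estimated count plus 1 with no depth correction: undoing the log gave whole numbers within 1e-06 for 73.4% of values, and totals that differed between libraries. The authors' deposited comparison gives 644 genes, each with a mean normalized signal, log2 fold change, p-values and a score (the test's statistic). How those genes were chosen is not stated, but the largest adjusted p among them is 0.0498.

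Estimated counts were recovered, divided by median-of-ratios size factors (0.361 to 1.27) and tested as log2(scaled count + 1) by limma 3.58.1 under R 4.3.3, with a model of genotype alone and a mean-variance trend. A gene was tested if 4 or more libraries reached a scaled count of 10. P-values treat the 8 embryos as independent. Fold changes of scarce genes are understated on this scale. GENCODE M21 (GRCm38, the assembly of mm10) gave exonic lengths and positions; estimated counts and union exon lengths are not matched transcript by transcript. The steps were run on simulated data with the same dispersion for every gene, which does not show how they behave with the spread between these libraries. The title numbers were not taken to pair the libraries. The members and lists were chosen with earlier results of these data known. Named genes are the 10 members, Etv4, Etv5 and Six2, up to 4 called or the 2 leading genes of each list, and the 3 symbols nearest to a called member; unnamed gene models were left out of the last, and 1 of these 3 is not reported here. Other genes, among them Bmpr1a, Smad5, the Id genes, Wt1 and Lars2, were named after their values were seen. Fits that leave out libraries kept the size factors and the genes tested.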

Additional observations from a re-analysis of the deposited data

How the results depend on the processing

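Bmp4, Bmp6, Bmp7 and Grem1 kept their direction under every alternative run (25 for Grem1, which the filter of at least 50 scaled counts removed, and 26 for the others), and Bmp7 passed the threshold in 13 of its 26. It did not pass with total-count scaling (−0.70, adjusted p = 0.238), total count without Lars2 (−0.77, 0.0885), no depth correction (−0.36, 0.63), a filter of above 0 in at least 1 library (−0.83, 0.0596), eBayes without trend (−0.83, 0.0974) or mutants 1 and 2 and controls 1 and 2 alone (−0.68, 0.0619), so that 0 of the 10 genes were called lower in each. Bmp4 passed with library weights (0.65, adjusted p = 0.0155) and without mutant 4 and control 4 (0.79, 0.0294), so that 1 gene was called higher in each. The other 8 genes were called in no alternative.

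Without depth correction the median of all genes was 0.48, and Bmp5 stood at 0.45, Gdf11 at 0.25, Chrdl1 at 0.13, Nog at 0.46 and Bmper at 0.13; relative to that median Bmp7 was at −0.84. With total count that median was 0.14, and Bmp5 stood at 0.12 and Nog at 0.13; without Lars2 in the total they stood at 0.046 and 0.058. Nog also turned positive with upper-quartile scaling (0.0052), a pseudocount of 8 (0.014), library weights (0.15) and limma voom (0.095). The cause of these changes was not tested beyond the scaling itself.

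With each replicate left out in turn, the log2 fold changes ranged from −0.17 to 0.23 for Bmp2, 0.54 to 0.77 for Bmp4, −0.19 to 0.12 for Bmp5, 0.28 to 0.66 for Bmp6, −0.92 to −0.76 for Bmp7, −0.27 to −0.19 for Gdf11, 0.36 to 0.98 for Grem1, −0.48 to −0.23 for Chrdl1, −0.29 to 0.43 for Nog and −0.42 to −0.24 for Bmper. Genes called lower numbered 0 to 1 of 10, genes called higher 0 to 1, and all genes called 9 to 177, where 45 were called with all libraries. That total was 11 with total count, 80 without depth correction, 28 without trend, 748 with library weights, 68 with limma voom, 16 within mutants 1 and 2 and controls 1 and 2, 190 without mutant 4 and control 4, and 148 without control 4, mutant 3 and mutant 4, an alternative chosen after seeing the data. With the replicate number as a block it was 133; Bmp7 passed there (adjusted p = 0.0209) and Bmp4 did not (0.0659). Deviations of same-numbered mutants and controls had correlations of 0.266, 0.098, −0.126 and 0.348. Those of differently numbered mutants and controls ran from −0.307 to 0.236. So few values cannot settle whether the numbers pair the libraries, and a pairing was not assumed. With the number in the library name as the block instead, 36 genes were called. There Bmp7 passed at −0.70 (limma adjusted p = 0.0254) and Bmp4 did not, at 0.64 (limma adjusted p = 0.17). Mutant 3 and control 3 each carry a library-name number of their own, so they add nothing to the genotype difference in that fit. Depth limits Grem1, Nog, Chrdl1 and Bmp5 most: in control 4 counting error alone was 18.4% to 36.0% of their values. No group of 4 held a value that stood apart by Dixon's test.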

Other observations

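Several ligands outside the 10 genes were scarce in these kidneys. Bmp10, Bmp15, Gdf2, Gdf3, Gdf5, Gdf9, Gdf15, Bmp8a and Mstn were at 0 in at least 1 library and under the filter. Bmp3, which encodes a BMP family member that opposes other BMPs, had 193, 350.1, 644 and 861 scaled counts in mutants 1 to 4, against 428, 206, 328 and 437 in controls 1 to 4, so the genotypes overlapped (log2 fold change 0.39, SE 0.43, limma adjusted p = 0.765). Gdf10 had 116, 159.7, 87.1 and 209 in mutants 1 to 4, against 67.2, 57.9, 107 and 55.4 in controls 1 to 4 (0.96, SE 0.32, limma adjusted p = 0.267). Hjv, a BMP co-receptor known from iron regulation, was under the filter, at 4.89, 51.4, 12.2 and 3.52 scaled counts in mutants 1 to 4, against 2.76 in control 1 and 0 in controls 2 to 4; the authors' deposited table lists it at a log2 fold change of 4.33 (adjusted p = 0.0407). Bmp3, Bmp10 and Hjv were named here after their values were seen.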
